A study of Mus musculus with 8 samples.

Results

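The 34 genes described here act in mitosis: they drive entry into division, hold the spindle checkpoint, build the kinetochore and the spindle, and complete cytokinesis. They were chosen by name, as rows of the values table whose single gene symbol was on the list, with the probe set of highest mean where a gene had several. Of the 34 genes, 33 were measured among 19938 genes in all. Ccnb1 was not analysed here, and Top2a was the only measured one with more than 1 probe set.

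Gene expression was measured on 1-colour arrays in 8 primary mouse osteosarcomas, all of strain C57Bl6, and the 2 tumour models were compared. The 4 shRNA OS tumours carried the P53.1224 hairpin against the tumour suppressor p53, and the 4 Cre:lox OS tumours carried P53fl/fl alleles, which Cre recombinase deletes. In each model 3 tumours were Rbfl/+, with 1 floxed allele of the retinoblastoma gene, and 1 was Rb+/+. In shRNA OS replicates 1 to 3 were tibial and replicate 4 came from the humerus, with replicate 2 the Rb+/+ tumour. In Cre:lox OS replicate 1 came from the scapula and was the Rb+/+ tumour, replicate 2 came from the humerus, and replicates 3 and 4 were tibial. The series title calls the hairpin lineage restricted. The sources used here do not give the promoter that drives the hairpin or Cre, nor the age and sex of the mice. Each tumour has a number of its own in the titles, so replicates were taken as separate tumours, although the labels do not say whether any came from 1 mouse. All values are log2 RMA expression, in which a difference of 1 is a doubling of signal. Where a value is given for every tumour, replicates 1 to 4 of a model follow in that order.

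A dividing cell enters mitosis when cyclin B and Cdk1 become active together with the Aurora and Polo-like kinases. Its chromosomes are condensed by condensin, attached through kinetochores to spindle microtubules, and parted by separase once the checkpoint built on Bub1, Bub1b, Ttk and Mad2l1 is satisfied. Transcripts of these genes accumulate late in the cell cycle, and the family is widely read as a measure of proliferation in tumours, osteosarcoma included. In whole tumours a lower level can come from fewer dividing cells or from less RNA per dividing cell, and the 2 cannot be told apart here.

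Many late cell-cycle genes share short promoter elements, and the promoters of the members are shown for that reason. Whether these elements have a part in the members' levels across the tumours was not tested. Searched were TTTGAA, the core of the cell cycle homology region (CHR), and CCAAT, the element bound by the factor NF-Y, each on both strands (TTCAAA and ATTGG on the other strand), and matches of the 2 motifs that share a letter were both kept. The RefSeq promoter table (GRCm38.p6, 250 bases before to 50 after the start site) held 29 of the 34 genes, and not Aurkb, Spc24, Tpx2, Kif20a and Smc4. The following are the 250 bases before the start of 5 genes, with the motif matches in capitals. Ccnb2 lies on the minus strand at chr9:70421555-70421804, Cdc20 on the minus strand at chr4:118437344-118437593, Espl1 on the plus strand at chr15:102296043-102296292, Kif11 on the plus strand at chr19:37376132-37376381, and Kif2c on the minus strand at chr4:117178773-117179022.
Ccnb2: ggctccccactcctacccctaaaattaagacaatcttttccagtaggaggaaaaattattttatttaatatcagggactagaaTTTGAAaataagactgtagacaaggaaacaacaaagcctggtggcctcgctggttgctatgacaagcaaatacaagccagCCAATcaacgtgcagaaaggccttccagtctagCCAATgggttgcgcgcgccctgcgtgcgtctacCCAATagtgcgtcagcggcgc
Cdc20: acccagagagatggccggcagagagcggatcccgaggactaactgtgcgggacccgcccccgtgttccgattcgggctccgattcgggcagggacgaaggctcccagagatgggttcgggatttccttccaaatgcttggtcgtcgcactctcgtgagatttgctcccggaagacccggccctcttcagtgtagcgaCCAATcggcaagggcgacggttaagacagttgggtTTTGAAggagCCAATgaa
Espl1: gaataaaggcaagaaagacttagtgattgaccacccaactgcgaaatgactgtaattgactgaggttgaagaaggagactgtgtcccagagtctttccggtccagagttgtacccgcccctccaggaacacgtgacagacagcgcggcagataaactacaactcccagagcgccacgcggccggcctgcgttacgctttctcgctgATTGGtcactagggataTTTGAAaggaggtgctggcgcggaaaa
Kif11: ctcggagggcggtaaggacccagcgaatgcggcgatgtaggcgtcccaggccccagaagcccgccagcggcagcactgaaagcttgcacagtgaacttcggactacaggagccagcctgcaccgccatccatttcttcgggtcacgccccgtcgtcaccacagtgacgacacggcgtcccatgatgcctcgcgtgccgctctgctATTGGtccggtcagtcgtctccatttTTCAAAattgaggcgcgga
Kif2c: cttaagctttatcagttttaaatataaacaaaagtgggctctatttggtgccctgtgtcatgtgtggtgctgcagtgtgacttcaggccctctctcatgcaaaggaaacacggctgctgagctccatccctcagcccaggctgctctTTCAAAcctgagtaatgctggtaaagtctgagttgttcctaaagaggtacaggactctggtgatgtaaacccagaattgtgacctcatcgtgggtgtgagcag

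TTTGAA or its complement occurred in 22 of the 29 promoters (75.9%), against 20.2% of the 27025 genes in the promoter table. CCAAT or its complement also occurred in 22 (75.9%), against 41.1% of all genes, and both occurred in 19 (65.5%), against 8.97%. Within 50 bases of the start site TTTGAA lay in 20 of 29 promoters (69%), against 5.72% of all genes. In Cdc20, Espl1 and Kif11 it began at -18, -27 and -19 relative to the start, with a CCAAT match further out at -53, -44 and -45. Cdc20 had another CCAAT nearer to the start, at -8. Ccnb2 had 3 CCAAT matches, at -87, -54 and -21, one TTTGAA at -167 and a further TTTGAA just inside the transcript, outside the printed stretch. Kif2c had TTTGAA farther away, at -103, and no CCAAT. The promoters without TTTGAA were those of Ccnb1, Bub1, Mad2l1, Cenpe, Nuf2, Birc5 and Ncaph. Of 66 other mitosis genes with a promoter 48.5% held TTTGAA, of 21 DNA replication genes 9.52%, and of 59 genes of the cell type marker lists 25.4%. The range of expression over the 8 tumours had a median of 1.17 for the 22 measured members with TTTGAA and of 1.40 for the 6 without it, and the 2 sets of ranges overlapped.

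**Figure D1:**
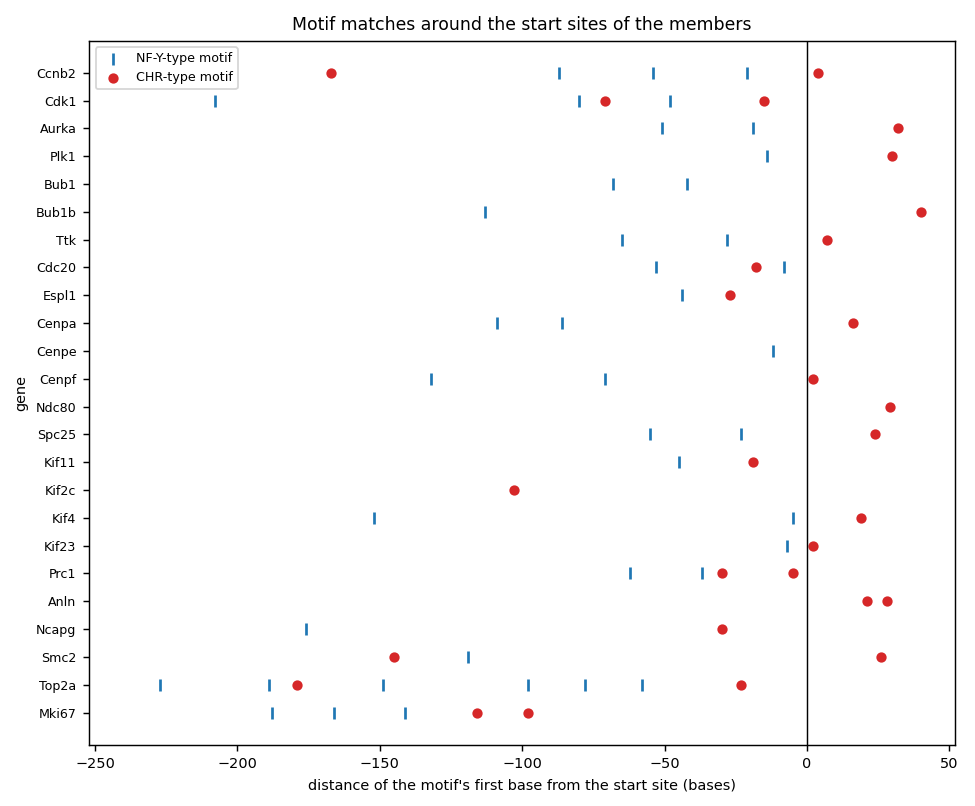
Matches to TTTGAA and CCAAT by distance in bases from the start site (0 is its first base), 1 line per measured gene with a match. Of the 29 genes in the RefSeq promoter table, Mad2l1, Nuf2, Birc5 and Ncaph held neither motif and have no line. Ccnb1, which was not analysed, has none either. TTTGAA matches crowd within 50 bases of the start in 20 of the 29 genes with a promoter, with CCAAT matches mostly upstream of them.

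Nearly all members were high or low in the same tumours, and the tumours of 1 model differed more than the means of the models. Relative to each gene's mean over the 8 tumours, the median of the 33 members was 0.51 above in shRNA OS replicate 1, 0.42 above in Cre:lox OS replicate 1 and 0.40 above in Cre:lox OS replicate 2. It was -0.48 in shRNA OS replicate 2 and -0.43 in shRNA OS replicate 4. The other three tumours lay near the mean, with -0.09 in shRNA OS replicate 3, -0.12 in Cre:lox OS replicate 3 and -0.004 in Cre:lox OS replicate 4. The shRNA OS tumours held both the highest and the lowest of the 8 medians, and the models overlapped. In shRNA OS replicate 1 32 of 33 members lay above their mean, and in shRNA OS replicates 2 and 4 32 of 33 lay below it.

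Shared extremes were counted gene by gene. Because all 33 members had means above the median of all genes' means, the share among the genes above it is given second. Of the 33 members 17 were highest in shRNA OS replicate 1, against 10.9% of all genes and 13.0% of those above the median. Cre:lox OS replicate 1 was highest for 8 members (9.11% and 11.5%), Cre:lox OS replicate 2 for 7 (13.4% and 21.3%) and Cre:lox OS replicate 4 for 1 (13.2% and 19.1%). The lowest value fell in shRNA OS replicate 2 for 18 members (23.2% and 38.7%) and in shRNA OS replicate 4 for 11 (7.8% and 10.8%). The remaining lowest values were those of Ccnb2 and Smc4 in Cre:lox OS replicate 3 (10.8% and 17.9%), Mki67 in shRNA OS replicate 3 (12.5% and 5.51%) and Spc24 in Cre:lox OS replicate 4 (23.8% and 9.82%). Across the 8 tumours the median range of a member was 1.20, from 0.66 for Cdk1 to 1.73 for Anln. The median SD over tumours was 0.42 for the members, 0.31 for genes with means above that median and 0.27 for all genes.

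Array properties moved with part of this. The interquartile range of the array was 2.59 in shRNA OS replicate 2 and 2.79 in Cre:lox OS replicate 3, against 2.95 to 3.19 in the others, and shRNA OS replicate 2 had the lowest mean correlation with the other arrays, 0.941 against 0.961 to 0.968. In shRNA OS replicate 2 the genes with means above the median of all genes' means lay as a whole at -0.25. After quantile normalization, which gives all arrays 1 distribution, the member medians were 0.50, -0.36, -0.13 and -0.42 among shRNA OS and 0.37, 0.34, -0.06 and -0.07 among Cre:lox OS tumours. The same 3 tumours were highest and the same 2 lowest as before.

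**Figure D2:**
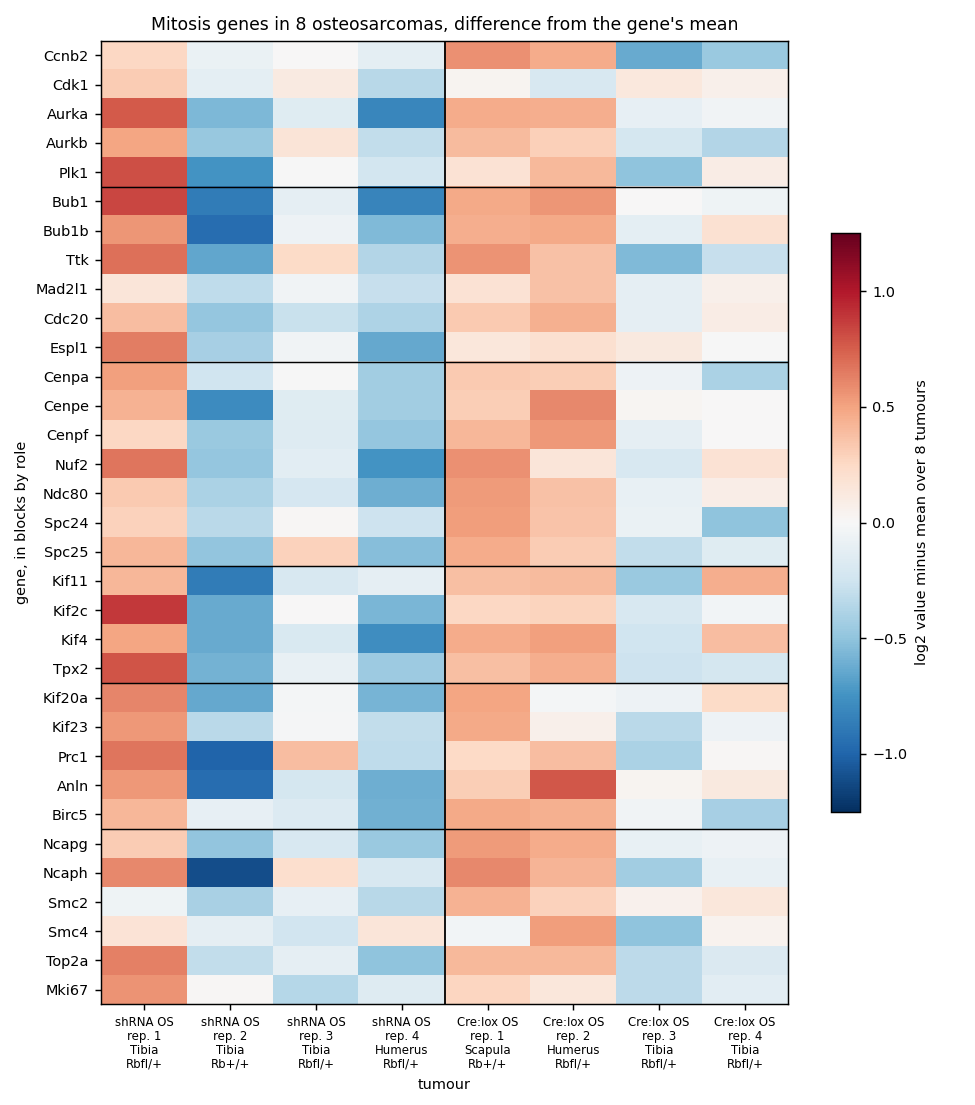
Deviation of each of the 33 measured members (lines, grouped by role) from its own mean over 8 tumours (columns), in log2 units on a colour scale centred at 0. shRNA OS replicate 1 and Cre:lox OS replicates 1 and 2 are high for nearly all members, and shRNA OS replicates 2 and 4 are low.

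**Figure D3:**
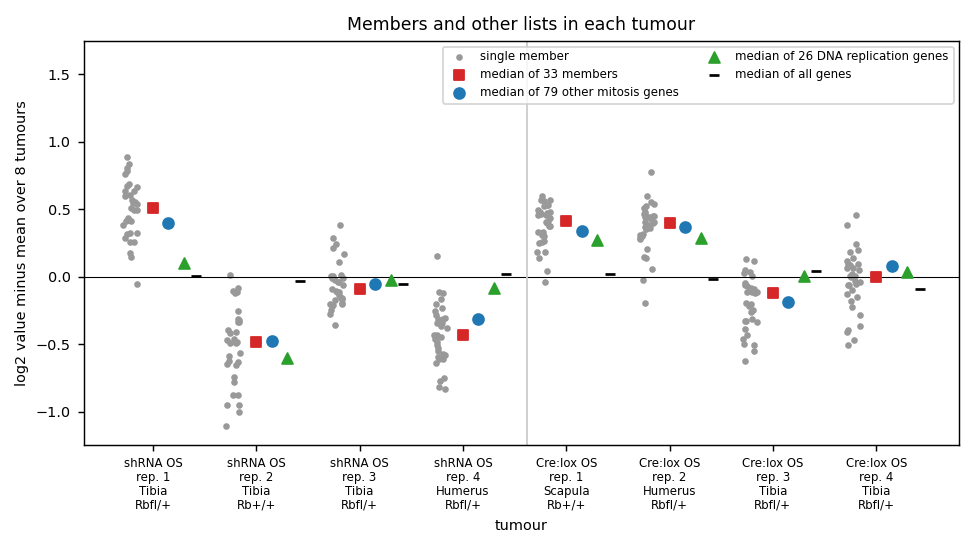
Deviations of the members in each tumour in log2 units, 1 grey point per gene; the red square is the median of the 33 members, and the other symbols are medians of the other mitosis genes, the DNA replication genes and all genes. The members' medians run from -0.48 in shRNA OS replicate 2 to 0.51 in shRNA OS replicate 1, and both of these are shRNA OS tumours.

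Between pairs of members the correlation over the 8 tumours had a median of 0.81 over 528 pairs, and 0.75 after quantile normalization. These points share their arrays and are given as a description. The closest pair was Cenpe and Anln (0.99), and 271 pairs exceeded 0.8. The most distant pair was Cdk1 and Smc4 (-0.39), 1 of 2 pairs below 0. Tpx2, Bub1 and Aurka followed the mean of the other members most closely (0.97 each), and Smc4 (0.43), Cdk1 (0.48), Ccnb2 (0.65), Mki67 (0.69) and Smc2 (0.75) least. The same measure exceeded 0.8 for 47 of 79 other mitosis genes (59.5%), 6 of 26 DNA replication genes (23.1%) and 3.09% of all genes. Its median was 0.33 for macrophage, 0.20 for skeletal muscle, 0.15 for fibroblast, 0.08 for osteoblast, -0.30 for endothelial and -0.42 for chondrocyte markers. For osteoclast markers it was -0.26, for B cell -0.19, for erythroid precursor -0.17 and for neutrophil precursor markers -0.12. Smooth muscle and pericyte markers and T and NK cell markers had a median of 0.10 each. None of these markers exceeded 0.8. Of the members named here for this measure, Aurka, Cdk1, Ccnb2, Mki67 and Smc2 held TTTGAA and Bub1 did not. The promoter table did not hold Tpx2 and Smc4.

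Among the genes of mitotic entry, Aurka, the kinase that matures centrosomes and the spindle, had log2 values of 10.15, 8.82, 9.23 and 8.57 among shRNA OS and 9.85, 9.84, 9.28 and 9.34 among Cre:lox OS tumours. Replicate 1 of shRNA OS was highest and replicate 4 lowest, so the shRNA OS values spanned those of Cre:lox OS. The difference between models was -0.39 (SE 0.32; limma, adjusted p = 0.777). Ccnb2, a B-type cyclin that activates Cdk1, measured 11.14, 10.80, 10.89 and 10.76 among shRNA OS and 11.46, 11.35, 10.26 and 10.42 among Cre:lox OS tumours. It was highest in Cre:lox OS replicates 1 and 2 and lowest in Cre:lox OS replicates 3 and 4, a spread within 1 model that enclosed all shRNA OS values. Plk1 and Aurkb were lowest in shRNA OS replicate 2 and highest in shRNA OS replicate 1, and Cdk1 had the narrowest range of all.

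In the checkpoint and anaphase group, Bub1, a checkpoint kinase at kinetochores, measured 10.38, 8.67, 9.43 and 8.71 among shRNA OS and 10.02, 10.10, 9.55 and 9.49 among Cre:lox OS tumours. It varied 3.28-fold between its lowest and highest tumour, both shRNA OS. Cdc20, which activates the ligase that starts anaphase, measured 9.74, 8.88, 9.08 and 8.97 among shRNA OS and 9.69, 9.80, 9.24 and 9.46 among Cre:lox OS tumours. The values of shRNA OS replicates 2 to 4 lay below every Cre:lox OS value, and shRNA OS replicate 1 lay among the highest. Espl1, the separase that cleaves cohesin, measured 8.76, 7.70, 8.08 and 7.47 among shRNA OS and 8.26, 8.32, 8.24 and 8.11 among Cre:lox OS tumours. Its Cre:lox OS values lay close together (8.23 ± 0.09, SD, n = 4), while shRNA OS spread widely (8.002 ± 0.56, SD, n = 4). Mad2l1, which binds Cdc20 while chromosomes are unattached, had a range of only 0.69, and Bub1b and Ttk had ranges of 1.51 and 1.34.

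Of the kinetochore genes, Ndc80, the microtubule-binding subunit of the NDC80 complex, measured 8.75, 8.03, 8.21 and 7.81 among shRNA OS and 8.95, 8.79, 8.34 and 8.51 among Cre:lox OS tumours. Its partner Nuf2 measured 9.04, 7.88, 8.23 and 7.62 among shRNA OS and 8.94, 8.52, 8.16 and 8.55 among Cre:lox OS tumours. Both were lowest in shRNA OS replicate 4, and for both the value of shRNA OS replicate 1 lay among or above those of Cre:lox OS, so the models overlapped. Spc24, the subunit on the kinetochore side of that complex, measured 8.10, 7.47, 7.82 and 7.55 among shRNA OS and 8.34, 8.17, 7.73 and 7.31 among Cre:lox OS tumours. It was lowest in Cre:lox OS replicate 4, the single member for which that tumour was lowest. Cenpa, the centromeric histone, Cenpe, a kinetochore motor, Cenpf and Spc25 had ranges from 0.94 to 1.38.

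Of the spindle motors, Kif4, a chromosome-bound kinesin, measured 8.91, 7.79, 8.22 and 7.65 among shRNA OS and 8.88, 8.93, 8.17 and 8.80 among Cre:lox OS tumours. All Cre:lox OS values but that of replicate 3 lay above 3 of the 4 shRNA OS values. Kif11, the kinesin that pushes spindle poles apart, measured 9.62, 8.33, 8.999 and 9.09 among shRNA OS and 9.58, 9.60, 8.74 and 9.66 among Cre:lox OS tumours. Its highest value was in Cre:lox OS replicate 4, the only member highest there, and its value in Cre:lox OS replicate 3 stood well below the other three of its model. Kif2c, a kinesin that depolymerises microtubules, measured 9.94, 8.43, 9.07 and 8.49 among shRNA OS and 9.31, 9.34, 8.86 and 9.02 among Cre:lox OS tumours. It was highest in shRNA OS replicate 1 and lowest in shRNA OS replicate 2, like Tpx2, which targets Aurka to the spindle.

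Of the midzone and cytokinesis genes, Anln, the scaffold of the contractile ring, measured 10.39, 8.89, 9.63 and 9.23 among shRNA OS and 10.16, 10.62, 9.88 and 9.96 among Cre:lox OS tumours. It had the widest range of the 33, and its lowest 3 values were shRNA OS tumours. Kif20a, a midzone kinesin, measured 10.13, 8.87, 9.49 and 8.93 among shRNA OS and 10.01, 9.49, 9.45 and 9.76 among Cre:lox OS tumours. Kif20a was lowest in shRNA OS replicates 2 and 4, and the models overlapped. Prc1, which bundles midzone microtubules, had a range of 1.67, Kif23 0.88 and Birc5, of the chromosomal passenger complex, 1.07.

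Of the chromosome structure genes, Smc2, a core condensin subunit, measured 9.30, 8.95, 9.25 and 9.02 among shRNA OS and 9.79, 9.64, 9.41 and 9.50 among Cre:lox OS tumours. All 4 shRNA OS values lay below all 4 Cre:lox OS values. Its partner Smc4 measured 10.40, 10.11, 9.98 and 10.38 among shRNA OS and 10.19, 10.75, 9.73 and 10.27 among Cre:lox OS tumours. Smc4 was highest in Cre:lox OS replicate 2 and lowest in Cre:lox OS replicate 3, and did not separate the models. Ncaph, a regulatory condensin subunit, measured 9.98, 8.28, 9.60 and 9.18 among shRNA OS and 9.98, 9.81, 8.95 and 9.28 among Cre:lox OS tumours. Its value in shRNA OS replicate 2 stood below all others, and shRNA OS replicate 1 and Cre:lox OS replicate 1 were highest. Mki67, the proliferation antigen, was lowest in shRNA OS replicate 3, and Top2a, which untangles DNA, in shRNA OS replicate 4.

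Between models no member passed an adjusted p of 0.05, at which 4 of 19938 genes (0.0201%) passed (limma, Benjamini-Hochberg). Of the 33 members 31 were lower on average in shRNA OS, against 48.1% of all genes, and 2, Ccnb2 and Mki67, were higher. The median difference was -0.23, against 0.01 over all genes, less than the SD of 0.45 between the member medians of tumours of 1 model. At an unadjusted p under 0.05 only Smc2 was reached, 1 of 33, against 9.63% of all genes. Smc2 averaged 9.13 ± 0.17 in shRNA OS and 9.59 ± 0.17 in Cre:lox OS (SD, n = 4 each), a difference of -0.46 (SE 0.14; limma, adjusted p = 0.347, and 0.242 to 0.649 over the alternatives). It was also the only member whose models did not overlap with shRNA OS lower, as held for 3.44% of all genes, and its models overlapped once the shift of neighbouring genes was subtracted. Of the other roles, the gene of smallest p was Anln in the midzone group, -0.62 (SE 0.31; limma, adjusted p = 0.562), Ndc80 at the kinetochore, -0.45 (SE 0.22; limma, adjusted p = 0.562), Kif4 among the motors, -0.55 (SE 0.29; limma, adjusted p = 0.578), and Cdc20 in the checkpoint group, -0.38 (SE 0.21; limma, adjusted p = 0.626). By role, all 7 kinetochore genes, all 6 checkpoint genes, all 4 motors and all 5 midzone genes had negative differences, with medians of -0.35, -0.31, -0.28 and -0.23, and none passed the test.

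The counts changed with the tumours included, but with any 1 tumour dropped most members stayed lower in shRNA OS. The fewest lower were 22 (51.8% of all genes), when shRNA OS replicate 2 was dropped. Leaving out shRNA OS replicate 4 gave 25 (50.4%), and leaving out the Rb+/+ scapula tumour of Cre:lox OS gave 26 (46.4%). Without shRNA OS replicate 1 all 33 members were lower in shRNA OS, against 49.4% of all genes, the median difference was -0.47 and 15 members reached an unadjusted p under 0.05, against 8.09% of all genes in that direction. The smallest adjusted p was then 0.188, for Anln (limma). Without Cre:lox OS replicate 3, 4 members reached an unadjusted p under 0.05 (Cenpf, Ndc80, Kif4 and Smc2), against 8.97% of all genes. With any tumour but these dropped, Smc2 alone reached that level. With the Rbfl/+ tumours alone, 3 against 3, 17 members were lower (49.8% of all genes), the median was -0.05 and none reached an unadjusted p under 0.05 (8.71% of all genes). Cell type marker lists were also read between models, over all 8 tumours. Of all genes, 48.1% were lower in shRNA OS and 9.63% reached an unadjusted p under 0.05. Fibroblast markers had a median difference of -0.85, with 5 of 6 lower in shRNA OS and 3 at an unadjusted p under 0.05, and the mean level of the list ran from 8.32 to 9.76 in shRNA OS and from 9.46 to 11.02 in Cre:lox OS. Macrophage markers were lower for 8 of 8 genes, 1 at an unadjusted p under 0.05, with list means from 9.15 to 10.52 and from 9.72 to 10.84. Skeletal muscle markers were lower for 8 of 8 genes, none at that level, with list means from 7.47 to 10.91 and from 8.11 to 10.52. Osteoblast markers were higher in shRNA OS for 4 of 5 genes, 2 at that level, with list means from 11.92 to 12.21 and from 11.28 to 11.99. Endothelial markers were higher for 6 of 6 genes, 1 at that level, with list means from 9.47 to 10.06 and from 9.02 to 10.04. Of 5 chondrocyte markers 2 were lower, 1 of them at that level, and 3 higher, 2 of them at that level. The chondrocyte list means ran from 7.19 to 7.69 and from 7.40 to 7.885. The part of these lists in the mitosis genes' difference was not tested.

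**Figure D4:**
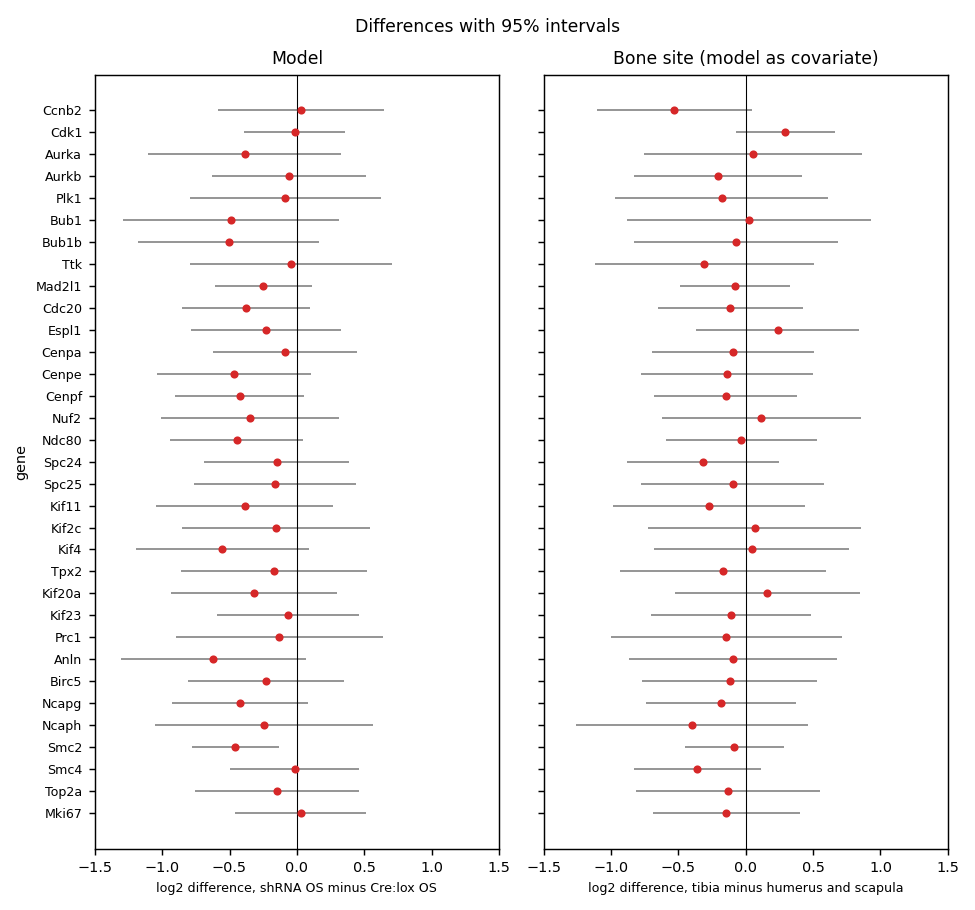
Differences of the 33 members with 95% intervals in log2 units, between models (shRNA OS minus Cre:lox OS, left) and between sites (tibia minus humerus and scapula, right). Most points lie below 0 in both panels, and only the interval of Smc2 between models, -0.78 to -0.13, leaves out 0.

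Between bone sites, the fit set 5 tibial tumours against 3 from the humerus or scapula and took the model into account. No member and no gene passed an adjusted p of 0.05 (0% of all genes, limma), and no member reached an unadjusted p under 0.05, which 1125 genes did (5.64%). Of the 33 members 25 were lower in tibial tumours, against 55.5% of all genes, with a median of -0.12 (all genes -0.03). Ccnb2 had the smallest p, at -0.53 (SE 0.25; limma, adjusted p = 0.921), with 10.70 ± 0.36 in tibial tumours (SD, n = 5) and 11.19 ± 0.37 in the others (SD, n = 3). Cdk1 had the next smallest p with the opposite sign, at 0.29 (SE 0.16; limma, adjusted p = 0.952), and Smc4 came after it at -0.36 (SE 0.21; limma, adjusted p = 0.952). After quantile normalization Cdk1 alone reached an unadjusted p under 0.05, 1 of 33 against 6.52% of all genes.

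Taken apart, the 2 models did not show the same order of sites. In Cre:lox OS both tibial tumours lay below both others for 28 of 33 members, against 21.2% of all genes, and above them for Cdk1 alone (12.9%). The members moved together, with a median correlation of 0.81, so this count describes the order of 4 tumours and not 28 separate observations. The 2 others were the Rb+/+ scapula tumour and an Rbfl/+ humerus tumour. Within shRNA OS all 3 tibial tumours lay above the humerus tumour for 12 members, against 14.3% of all genes, and below it for none, against 22.1%. With 1 humerus tumour in shRNA OS the difference between models in this direction was not tested. Without that tumour, shRNA OS replicate 4, 32 of 33 members were lower in tibial tumours (53.3% of all genes) with a median of -0.47, and Ccnb2, Spc24 and Birc5 reached an unadjusted p under 0.05 (5.82% of all genes). Without Cre:lox OS replicate 3 15 were lower (61.9% of all genes), with a median of 0.01. In the tibial tumours 7 of 8 macrophage markers were higher, where 55.5% of all genes were lower. An unadjusted p under 0.05 was reached by 6 of 8 macrophage and 5 of 6 fibroblast markers, against 5.64% of all genes. Both lists had their highest mean level in Cre:lox OS replicates 3 and 4, at 10.77 and 10.84 for macrophages and 10.60 and 11.02 for fibroblasts. Osteoclast markers were lower in tibial tumours for 7 of 7 genes, with a median difference of -1.28 and 1 at an unadjusted p under 0.05, and osteoblast markers for 5 of 5, with a median of -0.41 and 2 at that level. The part of these lists in the mitosis values by site was not tested.

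By Rb genotype, with the model as a covariate, 6 Rbfl/+ tumours were set against 2 Rb+/+ tumours. No member and no gene passed (0% of all genes, limma), and no member reached an unadjusted p under 0.05, which 4.73% of all genes did. Of the members 22 were higher and 11 lower in Rbfl/+ (53% of all genes were lower), with a median of 0.07. The largest difference was that of Prc1, at 0.50 (SE 0.38; limma, adjusted p = 0.836). The 2 Rb+/+ tumours lay at opposite ends, with shRNA OS replicate 2 at a member median of -0.48 and Cre:lox OS replicate 1 at 0.42. Without the former 32 members were lower in Rbfl/+ (median -0.36; 56.1% of all genes), and without the latter 1 was (median 0.41; 46% of all genes). Each of these leaves 1 Rb+/+ tumour, assumed to vary like the rest. The count lower in Rbfl/+ was 21 without shRNA OS replicate 1 (54.3% of all genes) and 6 without shRNA OS replicate 4 (53.8%). Leaving out Cre:lox OS replicate 3 gave 7 (52.3%), and 7 were also lower once replicate 4 of that model was dropped (50.4%). Prc1 and Ncaph, with Cre:lox OS replicate 1 left out, reached an unadjusted p under 0.05, 2 of 33 against 14.2% of all genes.

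Some members shifted in the same tumour and direction as the genes beside them. For each member the median shift of the 50 nearest measured genes above the array median, 25 on each side in the GRCm38.p6 gene order, was taken relative to the typical gene of that tumour. In Cre:lox OS replicate 3 the neighbours of Ccnb2 lay at -0.49, with 42 of 50 below the typical gene, and Ccnb2 itself at -0.56. In the same tumour the neighbours of Ttk lay at -0.42 and Ttk at -0.49. Kif23 and its neighbours both lay at -0.28 there. The neighbours of Kif11 lay at 0.50 in Cre:lox OS replicate 4, with 6 of 50 below the typical gene, where Kif11 lay at 0.42 and was highest of all tumours. The neighbours of Prc1 lay at 0.47 in shRNA OS replicate 3, with 4 of 50 below, and Prc1 at 0.37. In shRNA OS replicate 2 the neighbours of Bub1, Ncaph and Bub1b lay at -0.50, -0.49 and -0.42, and the genes at -0.64, -0.87 and -0.72. Bub1 and Ncaph share 40 of 51 genes of their stretch, so they are not separate cases. The other genes named here shared no genes of their stretches. Whether stretches that shifted in the same tumour lie on the same chromosome was not compared, so they are not shown to be separate shifts. Not every member followed its neighbours: Anln lay at 0.08 in Cre:lox OS replicate 4 where its neighbours lay at -0.29, and Kif20a at -0.11 in Cre:lox OS replicate 2 where they lay at -0.36.

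Such stretches were not particular to these genes. Over 11184 stretches of the genome, 3.97% to 15.5% per tumour shifted by more than 0.25 in either direction. With the neighbours' shift subtracted, the member medians were 0.42, -0.21, -0.10 and -0.46 among shRNA OS and 0.30, 0.25, -0.07 and -0.05 among Cre:lox OS tumours. The median correlation between pairs was 0.82, the median range fell from 1.20 to 0.97, and 29 members were lower in shRNA OS with a median of -0.17. The share of all genes lower in shRNA OS after subtraction was not computed, so this count has no background beside it. For Smc2 the neighbours lay at -0.29 in shRNA OS replicate 1, and after subtraction its models overlapped, with deviations of -0.09 ± 0.21 in shRNA OS and 0.11 ± 0.12 in Cre:lox OS (SD, n = 4 each).

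**Figure D5:**
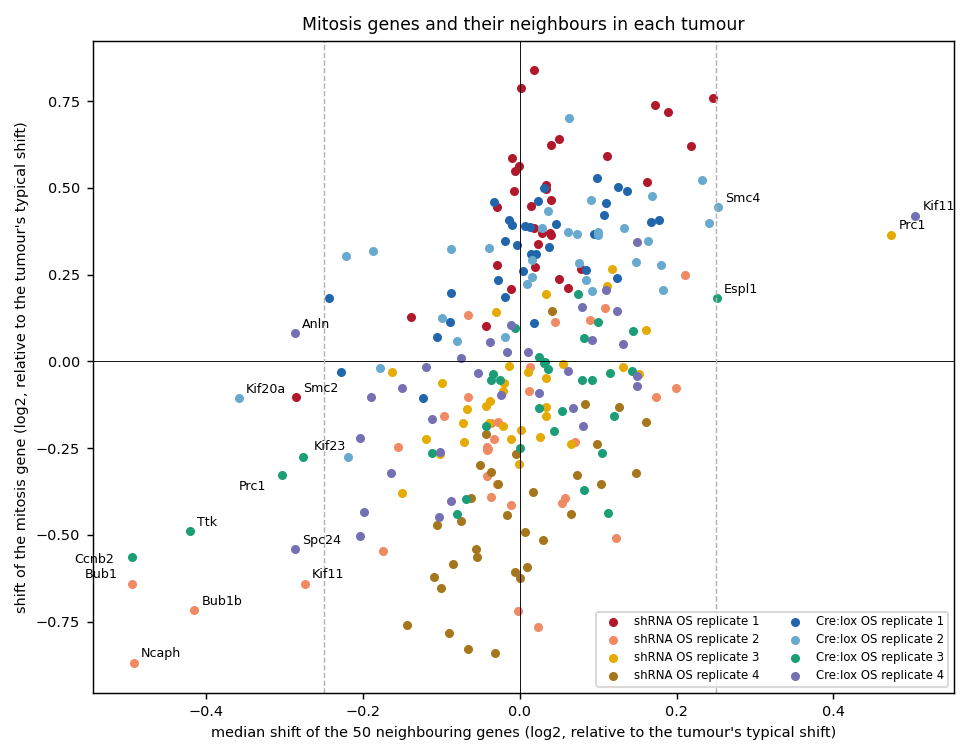
Shift of each member against the median shift of its 50 neighbouring genes in each tumour, both in log2 units relative to the typical gene of that tumour; colours mark the 8 tumours, dashed lines mark 0.25, and members beyond them are named. Named points at the far left and right lie toward the same sign on both axes, except Anln in Cre:lox OS replicate 4.

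Lists of other genes of division were read beside the members. Of 79 measured other mitosis genes 62 were lower and 17 higher in shRNA OS, where 48.1% of all genes were lower, with a median of -0.25. An unadjusted p under 0.05 was reached by 8 (10.1%), all lower, near the 9.63% of all genes, with none past the adjusted threshold. Zwint, a kinetochore protein, was at -0.62 (SE 0.22; limma, adjusted p = 0.398) and Mastl, a kinase of mitotic entry, at -0.74 (SE 0.28; limma, adjusted p = 0.432), while Cenpt and Cenpn were at 0.26 and 0.29. Of 26 DNA replication genes 22 were lower (48.1% of all genes) and 4 higher in shRNA OS, with a median of -0.31 and none past the adjusted threshold. An unadjusted p under 0.05 was reached by 8 of them (30.8%), 7 lower and 1 higher, against 9.63% of all genes. Pola1, a subunit of the polymerase that primes synthesis, was at -0.65 (SE 0.15; limma, adjusted p = 0.228), Mcm3, of the replicative helicase, at -0.78 (SE 0.23; limma, adjusted p = 0.307), Pold1, of a replicative polymerase, at 0.59 (SE 0.16; limma, adjusted p = 0.262) and Ccne1, the cyclin of S-phase entry, at 0.19. Between sites 53 of 79 other mitosis genes (67.1%) were lower in tibial tumours, against 55.5% of all genes. Ncapd3 was at -0.49, Ect2 at -0.57, Zwint at 0.38 and Smc1a at 0.43. Of the replication genes 21 of 26 were lower (55.5% of all genes), with Fen1 at -0.40, Orc1 at -0.31, Ccne1 at 0.37 and Rrm1 at 0.23, and none of these passed.

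Markers of the labelled tissue and of other cell types were read. Of 9 listed osteoblast genes 5 were measured, Sp7, Alpl, Ibsp, Col1a1 and Dlx5, and these were above the array median in all 8 tumours. Their level does not single out osteoblasts. Means above the array median were also found for 6 of 6 fibroblast, 7 of 7 osteoclast and 6 of 6 endothelial genes. The same held for 8 of 8 skeletal muscle and 7 of 8 macrophage genes. Markers of blood cell precursors were read as well: none of 9 neutrophil precursor genes had a mean above the array median, and 2 of 8 erythroid precursor genes did. The mean level of the neutrophil precursor list ran from 6.03 to 6.11 in shRNA OS and from 5.90 to 6.19 in Cre:lox OS, and that of the erythroid list from 6.32 to 6.73 and from 6.27 to 6.64, below the array medians of 7.13 to 7.23. The B cell list, which holds precursor genes, had 2 of 6 genes above the array median and list means from 7.15 to 7.32 in shRNA OS and from 6.92 to 7.19 in Cre:lox OS. Among its genes Ebf1 ran from 9.66 to 11.76 over the 8 tumours, while Vpreb1 ran from 6.13 to 7.04 and Igll1 from 6.70 to 7.31. In shRNA OS replicate 1, highest for most members, the osteoclast list had its lowest mean, 8.44 against 9.35 to 11.32 in the other tumours, and the part of this in the member values was not tested.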

How the data were processed

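RNA of 8 primary osteosarcomas was hybridised to 1-colour arrays, and the authors deposited log2 expression values made with RMA (robust multi-array average, version not given in the sources used here), per the submitters' processing notes; build mm9 is named there too. Each array held 35556 probe sets; 21789 had 1 gene symbol, 1621 several and 12146 no listed gene in the platform annotation. Groups came from the labels. Differences were fitted with limma 3.58.1 (lmFit, eBayes) in R 4.3.3 over 19938 genes (Benjamini-Hochberg adjusted p, threshold 0.05), without a filter on dim genes; the fit was tested on simulated data. Site and Rb genotype were fitted with the model as covariate. Values in every tumour are given, in each of 6 role groups, for the gene of smallest p between models, of smallest p between sites and of widest range, and for any gene past the threshold; of the other division lists, the 2 genes of smallest p per direction are named. Alternatives were quantile normalization, median centring, dropping the dimmest 25% of genes, the mean of probe sets, trended robust variance, site as covariate or none, Rbfl/+ tumours alone and each tumour left out. Subtraction of neighbouring genes, quantile-normalized tumour medians and the site order within each model were added after seeing the data. Promoters and gene order came from RefSeq (GRCm38.p6). The genes and lists were chosen with earlier results of these data known. The number of arrays limits the precision.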

Additional observations from a re-analysis of the deposited data

Results flagged for a closer look

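Kif11, the spindle motor, measured 8.74 in Cre:lox OS replicate 3, apart from the other three tumours of its model, which lay between 9.58 and 9.66. The gap to the nearest was 0.916 of the range of the 4 tumours, above the critical value of 0.829. Of 34 such checks this was the only 1 past its critical value, and chance passes about 1 in 20. With the shift of neighbouring genes subtracted, Kif11 stood at 0.30, 0.51, -0.33 and -0.09 in Cre:lox OS replicates 1 to 4. There replicate 3 lay nearer to replicate 4, and the check was not run on those values.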

How the results depend on the processing

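No paired analysis was possible because the labels match no tumour of 1 model to a tumour of the other. The replicate numbers used here only count the tumours within each model. No member passed an adjusted p of 0.05 in any comparison under any alternative run (limma). Genes of all passing between models numbered 4, against 8 after quantile normalization, 2 after median centring, 13 with site as a covariate and 9 in Rbfl/+ tumours alone, and 0 to 42 with each tumour left out, with 0 when replicate 3 or 4 of shRNA OS or replicate 3 of Cre:lox OS was dropped, 1 when replicate 2 or 4 of Cre:lox OS was, 7 without replicate 2 of shRNA OS, 19 without replicate 1 of Cre:lox OS and 42 without replicate 1 of shRNA OS. Of the members 31 were lower in shRNA OS (48.1% of all genes), against 17 in Rbfl/+ tumours alone (49.8%). With a tumour left out the count ran from 22 without shRNA OS replicate 2 (51.8%) to 33 without shRNA OS replicate 1 (49.4%). The count at an unadjusted p under 0.05 was 1 (9.63% of all genes), against 0 in Rbfl/+ tumours alone (8.71%). With a tumour left out it was 1 to 15, and the 15 came without shRNA OS replicate 1 (12.1% of all genes in either direction). Between sites 1 member, Cdk1, reached that level after quantile normalization (6.52% of all genes), 0 to 3 with a tumour left out, and 15 to 32 were lower in tibial tumours. Genes of all passing between sites numbered 0 to 1. Between sites Espl1 ran from -0.11 to 0.35 and Kif20a from -0.14 to 0.35, and both were below 0 only without shRNA OS replicate 4. Between Rb genotypes the count lower in Rbfl/+ ran from 1 without Cre:lox OS replicate 1 (46% of all genes) to 32 without shRNA OS replicate 2 (56.1%). With each tumour left out in turn, the medians over the members ran from -0.47 to -0.09 between models, from -0.47 to 0.01 between sites and from -0.36 to 0.41 between Rb genotypes. The tumour medians kept their sign after quantile normalization and after subtraction of neighbouring genes. The cause of these changes was not tested.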

Other observations

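Outside the lists, the genes whose profile over the 8 tumours was most like the mean of the members were Uqcc1 (0.99), Mapre1 (0.99), Rbl1 (0.99), Mtr (0.98) and Exo1 (0.98), where each number is Pearson's r over 8 tumours and is given as a description of genes chosen after their values were seen. Mapre1 is a microtubule plus-end protein, Rbl1 a relative of the retinoblastoma protein, Exo1 a DNA exonuclease, Mtr methionine synthase and Uqcc1 an assembly factor of mitochondrial complex III. Of the list of other mitosis genes Cdca8, of the chromosomal passenger complex, came closest (0.98), followed by the kinetochore gene Kntc1 (0.98).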
